A study of Mus musculus with 9 samples.

Results

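The genes described here build and run mitosis, the stage of the cell cycle in which duplicated chromosomes are separated and the cell divides. They are 44 named genes of mitotic entry, the spindle, the kinetochore, chromosome condensation and cytokinesis, and 43 of the 44 had a probe set among the 23229 genes tested. The members were taken by symbol from the authors' comparison table, with the probe set of the highest mean signal where a gene had more than 1. Ccnb1, which encodes cyclin B1, is the member that this table does not name. Gene expression was measured in the left ventricle of male mice on Affymetrix GeneChip whole-transcript arrays, with 1 array per sample and 3 samples in each of 3 groups. The first group was wild-type and ate a vitamin A sufficient diet (VAS). The second was LRAT -/- on the VAS diet, and the third was LRAT -/- on a vitamin A deficient diet (VAD). LRAT is lecithin retinol acyltransferase, the enzyme that esterifies retinol for storage. All mice were killed after 50 days on the diet, and the VAS diet was the VAD diet with 250000 U/kg retinol palmitate added. Wild-type mice on the VAD diet are not among the samples, so genotype and diet cannot be crossed. The age and strain of the mice, how the LRAT allele was made, and whether tissue was pooled are not stated in the labels. Nothing in the labels states that the samples of a group came from separate animals, so p-values measure the spread between these samples.

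Entry into mitosis is driven by the kinase Cdk1 bound to cyclins A and B, helped by the Polo and Aurora kinases. Microtubules then attach to chromosomes at kinetochores, and the spindle checkpoint holds the anaphase-promoting complex in check until every kinetochore is attached. After anaphase, a central spindle of bundled microtubules positions the contractile ring that splits the cell. Most of these genes are transcribed only in dividing cells, late in the cell cycle, and adult cardiomyocytes rarely divide. In bulk tissue a lower level from fewer dividing cells and one from less RNA per cell cannot be told apart.

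Many late cell cycle promoters carry a cell cycle genes homology region (CHR), the sequence TTTGAA or TTCGAA, close to the start of transcription, and CCAAT boxes upstream of it. Promoter windows from RefSeq (GRCm38.p6, 250 bases before to 50 after the annotated start) were found for 38 of the 43 members. The windows below are those of 6 members with high diet differences and a CHR, and of Nusap1, which has an equally large difference and neither motif. They run 5′ to 3′ on the gene's own strand, and capitals mark each CHR (TTTGAA or TTCGAA, read on either strand) and each CCAAT box (CCAAT or its reverse complement ATTGG). The window of Prc1 lies at chr7:80294201-80294500 on the forward strand. That of Anln lies at chr9:22389157-22389456 (reverse). That of Kif23 lies at chr9:61946750-61947049 (reverse). That of Plk1 lies at chr7:122159185-122159484 (forward). That of Cdk1 lies at chr10:69352863-69353162 (reverse). That of Ccnb2 lies at chr9:70421505-70421804 (reverse). That of Nusap1 lies at chr2:119618048-119618347 (forward).
Prc1: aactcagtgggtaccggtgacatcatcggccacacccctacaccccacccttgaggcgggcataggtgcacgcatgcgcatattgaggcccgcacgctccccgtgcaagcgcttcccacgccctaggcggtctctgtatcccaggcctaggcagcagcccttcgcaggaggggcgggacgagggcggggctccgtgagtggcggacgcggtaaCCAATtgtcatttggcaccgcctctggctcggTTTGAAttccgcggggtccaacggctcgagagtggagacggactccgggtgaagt
Anln: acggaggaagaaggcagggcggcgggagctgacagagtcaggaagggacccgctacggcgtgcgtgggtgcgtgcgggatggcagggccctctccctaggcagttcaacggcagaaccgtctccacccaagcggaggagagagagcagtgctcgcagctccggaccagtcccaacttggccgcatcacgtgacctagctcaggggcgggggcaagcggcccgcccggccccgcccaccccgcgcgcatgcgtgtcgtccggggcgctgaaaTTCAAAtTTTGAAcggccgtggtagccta
Kif23: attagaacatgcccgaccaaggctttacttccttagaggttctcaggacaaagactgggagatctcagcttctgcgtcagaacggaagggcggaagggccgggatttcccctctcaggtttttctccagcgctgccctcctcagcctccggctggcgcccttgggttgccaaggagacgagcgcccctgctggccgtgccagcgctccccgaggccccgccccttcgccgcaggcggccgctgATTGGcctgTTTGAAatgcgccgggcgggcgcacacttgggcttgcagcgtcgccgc
Plk1: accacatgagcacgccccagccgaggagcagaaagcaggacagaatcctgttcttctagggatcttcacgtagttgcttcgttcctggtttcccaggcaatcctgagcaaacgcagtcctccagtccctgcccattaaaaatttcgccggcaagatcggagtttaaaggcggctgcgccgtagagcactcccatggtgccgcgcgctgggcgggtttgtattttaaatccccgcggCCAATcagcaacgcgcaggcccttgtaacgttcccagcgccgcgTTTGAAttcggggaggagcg
Cdk1: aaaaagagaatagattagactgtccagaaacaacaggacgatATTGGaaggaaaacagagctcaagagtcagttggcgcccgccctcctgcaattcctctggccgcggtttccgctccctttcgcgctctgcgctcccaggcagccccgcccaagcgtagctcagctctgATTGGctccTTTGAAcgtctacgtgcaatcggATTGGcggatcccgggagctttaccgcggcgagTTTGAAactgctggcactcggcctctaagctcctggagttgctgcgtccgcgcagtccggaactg
Ccnb2: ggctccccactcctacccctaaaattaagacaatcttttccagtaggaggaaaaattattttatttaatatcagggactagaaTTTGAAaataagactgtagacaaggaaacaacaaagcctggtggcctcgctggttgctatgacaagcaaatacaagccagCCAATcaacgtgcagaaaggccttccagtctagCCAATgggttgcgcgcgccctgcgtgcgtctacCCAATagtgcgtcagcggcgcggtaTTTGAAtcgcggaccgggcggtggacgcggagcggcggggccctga
Nusap1: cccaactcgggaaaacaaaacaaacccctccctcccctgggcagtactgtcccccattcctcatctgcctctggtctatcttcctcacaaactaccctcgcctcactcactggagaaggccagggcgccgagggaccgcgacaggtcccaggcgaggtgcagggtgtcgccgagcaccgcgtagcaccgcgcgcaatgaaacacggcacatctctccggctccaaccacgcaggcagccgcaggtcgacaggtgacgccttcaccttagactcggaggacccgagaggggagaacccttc

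In the Prc1 window the CHR began at base -5 and the CCAAT box at base -37, counted from the annotated start. The Cdk1 window held CHR words at -71 and -15 and the Ccnb2 window at -167 and 5. Plk1 and Kif23 had 1 of each motif, with the CHR at 31 and at 3. Anln had a CHR word on each strand, at 22 and 29, and no CCAAT box. A CHR was found in 29 of the 38 members' windows (76.3%), against 16.8% of the 15140 tested genes with a window. Within the last 100 bases of the window, around the start itself, the shares were 68.4% and 4.16%. CCAAT boxes were found in 71.1% of members and 38.5% of tested genes, and both motifs in 65.8% and 6.92%. These are matches of letters, and binding of a factor was not measured.

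Signals are log2 values after RMA, the authors' normalization, and differences between groups are log2 differences with the standard error (SE) of the fit. The members were dim. Their means over the 9 arrays ran from 3.32 for Hmmr to 9.15 for Cenpa, and 40 of the 43 were under 7.53, which marks the 95th percentile among 5222 negative control probe sets. Mad2l1, Ube2c and Cenpa lay above it, and the median of the negative controls was 4.54. Low signals on such arrays compress differences, so the sizes below are uncertain. All 10 cardiomyocyte markers were bright, with a mean between 13.28 and 13.44 on each array. The probe set of Lrat itself read 5.81, 5.78 and 5.73 on the wild-type arrays, 7.29, 7.34 and 7.38 in LRAT -/- on VAS, and 6.84, 6.78 and 6.96 in LRAT -/- on VAD. All 9 signals lay below 7.53. Its signal was thus higher where the labels give the knockout (1.57 ± 0.07, limma adjusted p = 1.88e-05), and every genotype named here is that of the labels. Whether its probes fall inside the deleted sequence is not stated in the sources. Wild-type arrays 1 and 2 stood apart from the other 7 on the first principal component, which held 28.2% of the variance, and results that rest on single arrays are given with and without them.

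The diet comparison sets VAD against VAS among the LRAT -/- samples and asks how mitotic genes stand when dietary vitamin A is withdrawn. On the deficient diet 40 of the 43 members had a higher mean signal, against 49.4% of all genes tested. The 3 that did not were Cenpf (-0.07 ± 0.13), Cenpa (-0.05 ± 0.09) and Birc5 (-0.02 ± 0.10). The median difference was 0.26 over the members and -0.0015 over all genes. With limma, 0 of the 43 members and 0 of the 23229 genes (0.0%) had an adjusted p under 0.05, the lowest being 0.455, and 1017 genes had an unadjusted p under 0.05. At an unadjusted p under 0.05, 21 members were higher, where the share among all genes was 2.31%, and 0 were lower, where it was 2.07%. In 26 members every deficient array lay above every sufficient array, an arrangement found in 4.74% of all genes. No member had the opposite arrangement, which 4.92% of genes had, and 50.6% of genes had a lower mean. The samples numbered alike in the 2 groups deviated together across genes, so the differences were also read within numbers. In 34 members the deficient array was higher than the sufficient array of the same number in all 3 pairs, against 14.0% of genes, and 0 members were lower in all 3. These 34 include the 26 without overlap, which are higher under any pairing. Leaving out any 1 of the 9 arrays left between 15 and 23 members higher at an unadjusted p under 0.05, and the median difference between 0.24 and 0.30. In these settings between 694 and 1431 of all genes had such a p in either direction.

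**Figure D1:**
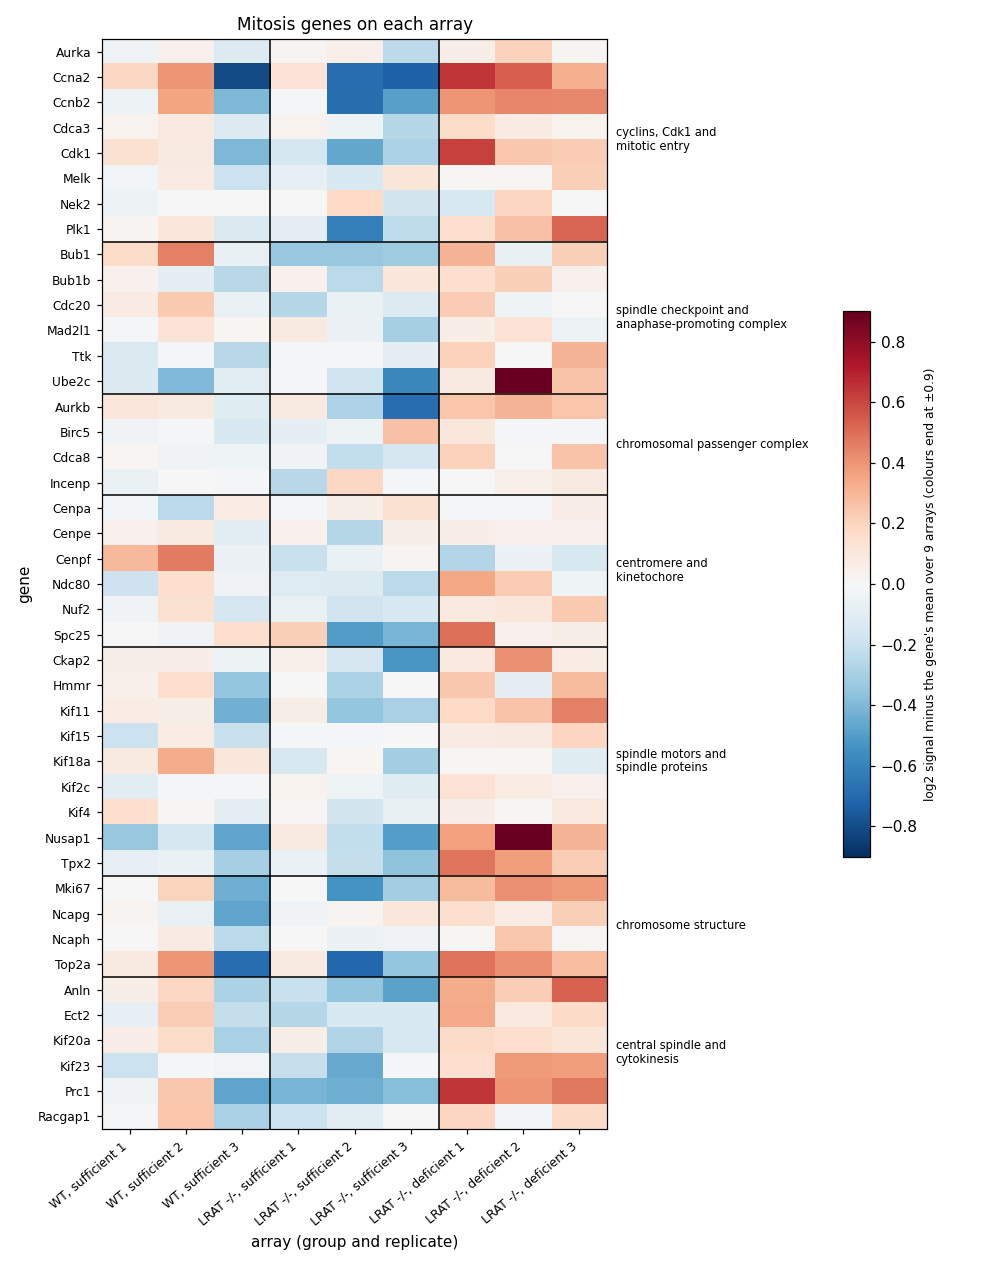
Log2 signal of each of the 43 members on each of the 9 arrays, minus that gene's mean over the arrays, with genes in rows by role and arrays in columns by group. The 3 columns of LRAT -/- on the deficient diet are mostly red, wild-type array 3 and LRAT -/- sufficient arrays 2 and 3 mostly blue, and the colours end at a deviation of 0.9.

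Central spindle and cytokinesis genes had the highest median diet difference of the 7 roles, 0.45 over 6 genes. All 6 were higher and 4 had an unadjusted p under 0.05. Prc1 (probe set 10554445), which bundles antiparallel microtubules in the spindle midzone, read 4.97, 4.95 and 5.01 on the sufficient diet against 6.04, 5.79 and 5.87 on the deficient diet. The 3 wild-type arrays read 5.36, 5.63 and 4.92. The sufficient LRAT -/- arrays were therefore nearly equal, the deficient ones stood above every other array, and wild-type array 3 lay with the sufficient LRAT -/- arrays. The diet difference was 0.92 ± 0.15, a fold of 1.89 (limma, unadjusted p = 0.000186, adjusted p = 0.455). Anln (probe set 10591781) encodes anillin, the scaffold of the contractile ring. On the sufficient arrays it read 5.71, 5.57 and 5.43, on the deficient arrays 6.25, 6.14 and 6.44, and 5.96, 6.10 and 5.63 in wild type. Its diet groups did not overlap, and the difference was 0.71 ± 0.13 (limma, adjusted p = 0.455). Kif23 (probe set 10594251), a kinesin of the centralspindlin complex, read 6.62, 6.37 and 6.80 on the sufficient diet against 6.97, 7.21 and 7.20 on the deficient diet. The wild-type arrays, at 6.62, 6.81 and 6.80, overlapped the sufficient arrays, and the diet difference was 0.53 ± 0.12 (limma, adjusted p = 0.921). Ect2, the exchange factor that activates RhoA at the cell equator, differed by 0.38 ± 0.11. Racgap1, the partner of Kif23 in centralspindlin, differed by 0.21 ± 0.13 and the kinesin Kif20a by 0.26 ± 0.12, both with an unadjusted p above 0.05. In the authors' deposited table the diet ratio of Prc1 was 1.85 (p = 0.00216). In the same deposited table of the authors that of Anln was 1.61 (p = 0.0053).

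Of 8 genes of mitotic entry, all were higher on the deficient diet and 4 had an unadjusted p under 0.05, with a median difference of 0.40. Cdk1, the kinase that drives mitosis, read 6.72, 6.42 and 6.59 on the sufficient diet against 7.49, 7.12 and 7.11 on the deficient one, and the difference was 0.66 ± 0.16. Ccnb2, cyclin B2, read 7.13, 6.46 and 6.65 against 7.53, 7.58 and 7.57, so the deficient arrays were nearly equal while the sufficient arrays spread. Its difference was 0.81 ± 0.20. Ccna2, cyclin A2, had the largest difference of any member, 0.93 ± 0.32, and also the largest SE. It read 6.65, 5.83 and 5.79 on the sufficient diet, 7.16, 7.05 and 6.84 on the deficient diet, and 6.70, 6.92 and 5.71 in wild type. Wild-type array 3 was again the low array. Plk1, the Polo kinase, differed by 0.63 ± 0.14, from a mean of 6.17 ± 0.27 (SD, n = 3) on the sufficient diet to 6.79 ± 0.19 on the deficient diet, without overlap. The other 4 had smaller differences, from 0.01 for the centrosomal kinase Nek2 to 0.18 for Cdca3, with Melk at 0.12 and the centrosomal kinase Aurka at 0.15. Ccnb1 could be followed through 3 probe sets that the authors' other table names Ccnb1 and the comparison table names Gm5593. The brightest read 5.18, 5.14 and 4.97 on the sufficient diet, 5.43, 5.56 and 5.78 on the deficient diet and 5.44, 5.72 and 5.21 in wild type. Its diet groups did not overlap either.

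**Figure D2:**
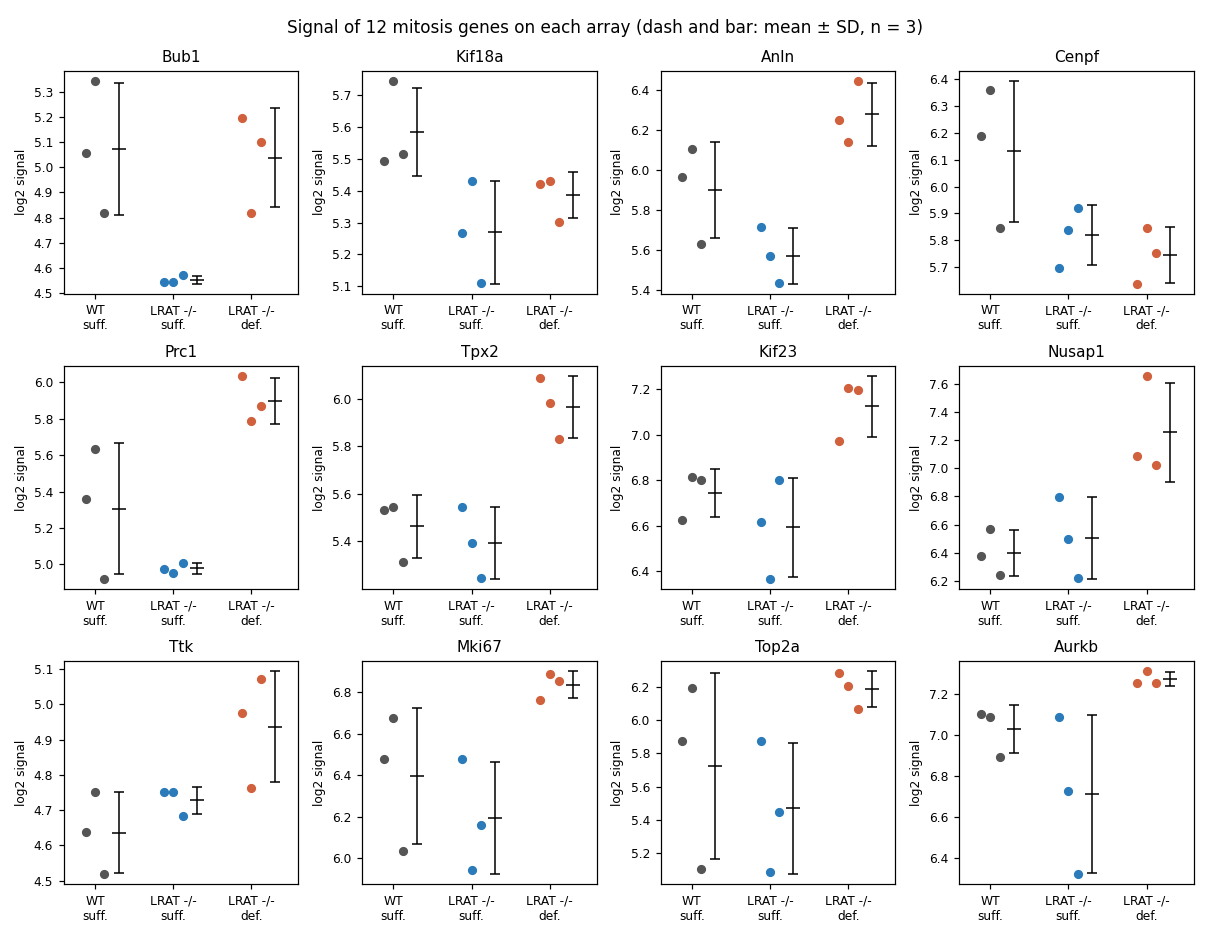
Log2 signal of 12 members on the 9 arrays, 1 panel per gene, with points for single arrays and a dash and bar for the mean ± SD of each group (n = 3). The y axes differ between panels and do not start at 0, and in 9 of the 12 panels the deficient LRAT -/- arrays lie highest on average.

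Among 9 spindle motors and spindle proteins all were higher on the deficient diet, 4 of them with an unadjusted p under 0.05, and the median difference was 0.24. Tpx2 (probe set 10477187), which recruits Aurora A to spindle microtubules, read 5.55, 5.39 and 5.24 on the sufficient diet against 6.09, 5.98 and 5.83 on the deficient diet. Wild type lay with the sufficient arrays at 5.53, 5.55 and 5.31. The diet difference was 0.57 ± 0.11 (limma, unadjusted p = 0.000376, adjusted p = 0.455). Nusap1 (probe set 10474984), a microtubule-bundling protein of the spindle, read 6.80, 6.50 and 6.22 on the sufficient diet, 7.09, 7.66 and 7.02 on the deficient diet and 6.38, 6.57 and 6.24 in wild type. Both other groups lay below all 3 deficient arrays, and the diet difference was 0.75 ± 0.19 (limma, adjusted p = 0.959). A second, dimmer Nusap1 probe set read 5.86, 6.06 and 6.06 against 6.47, 6.24 and 6.26. Its wild-type arrays, at 6.26, 5.98 and 6.21, overlapped the deficient arrays. Kif11, the kinesin that pushes spindle poles apart, differed by 0.49 ± 0.16, and the spindle protein Ckap2 by 0.40 ± 0.14. The kinesins Kif15, Kif2c, Kif4 and Kif18a differed by 0.12 to 0.13, with unadjusted p-values above 0.05. Of these, Kif15 and Kif2c had every deficient array above every sufficient one. Hmmr, the dimmest member, differed by 0.24 ± 0.15.

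The 4 genes of chromosome structure were all higher on the deficient diet, 2 with an unadjusted p under 0.05, with a median difference of 0.38. Mki67 (probe set 10568714) encodes Ki-67, which coats mitotic chromosomes and is the usual marker of proliferating cells. It read 6.48, 5.94 and 6.16 on the sufficient diet, 6.76, 6.89 and 6.86 on the deficient diet, and 6.48, 6.68 and 6.03 in wild type. The 3 deficient arrays were close together and above all others, and the diet difference was 0.64 ± 0.17 (limma, adjusted p = 0.959). Top2a (probe set 10390707), the topoisomerase that untangles sister chromatids, read 5.88, 5.09 and 5.45 on the sufficient diet against 6.28, 6.20 and 6.07 on the deficient diet. Its wild-type arrays read 5.88, 6.19 and 5.11, which overlapped both LRAT -/- groups, and the diet difference was 0.72 ± 0.27 (limma, adjusted p = 0.959). The second Top2a probe set was dimmer, with a mean of 3.91, and its diet groups overlapped. The condensin subunits Ncapg and Ncaph differed by 0.11 ± 0.12 and 0.12 ± 0.10.

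Spindle checkpoint and anaphase-promoting complex genes were higher in 6 of 6 cases, with a median difference of 0.21 and 2 with an unadjusted p under 0.05. Bub1 (probe set 10487480), a checkpoint kinase at the kinetochore, read 4.54, 4.54 and 4.57 on the sufficient diet, 5.19, 4.82 and 5.10 on the deficient diet and 5.06, 5.34 and 4.82 in wild type. The sufficient LRAT -/- arrays were nearly equal and lay below all 6 others. Their signals were close to 4.54, the median of the negative controls, where near equality says little about the group. The diet difference was 0.48 ± 0.14 (limma, adjusted p = 0.959). Ube2c, the ubiquitin-conjugating enzyme of the anaphase-promoting complex, differed by 0.72 ± 0.24. It read 7.69, 7.53 and 7.13 against 7.79, 8.76 and 7.97, with deficient array 2 far above the other 2. Ttk (probe set 10587508), the Mps1 kinase of the checkpoint, read 4.75, 4.75 and 4.68 on the sufficient diet, 4.97, 4.76 and 5.07 on the deficient diet, and 4.64, 4.75 and 4.52 in wild type. Its diet groups were close but did not overlap, and the difference of 0.21 ± 0.09 had an unadjusted p of 0.0514 with limma. Cdc20, an activator of the anaphase-promoting complex, differed by 0.21 ± 0.10, and the checkpoint proteins Bub1b and Mad2l1 by 0.17 ± 0.11 and 0.14 ± 0.10.

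The chromosomal passenger complex and the kinetochore were less uniform. Aurkb (probe set 10377405), the catalytic subunit of the passenger complex, read 7.09, 6.73 and 6.32 on the sufficient diet, 7.26, 7.31 and 7.26 on the deficient diet, and 7.11, 7.09 and 6.89 in wild type. The deficient arrays were nearly equal and above all others, and the difference was 0.56 ± 0.16 (limma, adjusted p = 0.959). The complex's targeting subunit Cdca8, borealin, differed by 0.29 ± 0.08, while the scaffold Incenp differed by 0.07 ± 0.10. Birc5, survivin, depended on the probe set. The brighter probe set, which the authors' other table names Gm12581, gave -0.02. The dimmer one, named Birc5 in both tables, read 5.90, 5.63 and 5.87 on the sufficient diet against 6.10, 6.15 and 6.10 on the deficient diet. Of the kinetochore subunits, Ndc80, Nuf2 and Spc25, which form the microtubule-binding Ndc80 complex, differed by 0.34 ± 0.12, 0.27 ± 0.09 and 0.43 ± 0.19, each with an unadjusted p under 0.05. The kinetochore motor Cenpe differed by 0.10 ± 0.09, and Cenpa, the centromeric histone and the brightest member, was flat across the 9 arrays, between 8.91 and 9.29. Cenpf read 5.70, 5.84 and 5.92 on the sufficient diet against 5.64, 5.85 and 5.75 on the deficient diet.

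**Figure D3:**
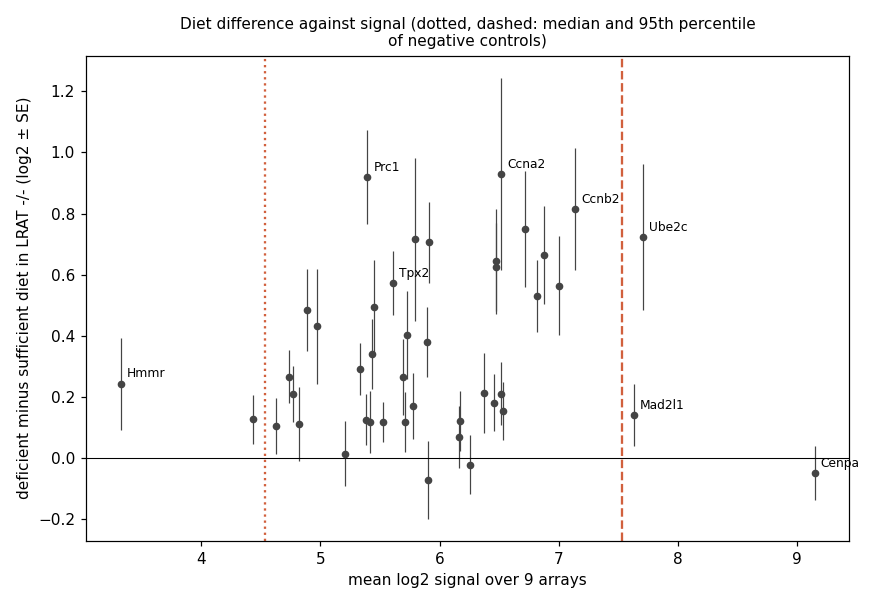
Diet difference within LRAT -/- (log2, point and SE) of the 43 members against their mean log2 signal over 9 arrays, with the median (4.54, dotted) and 95th percentile (7.53, dashed) of the negative controls. Differences are spread over the whole range of signals, 3 members lie to the right of the dashed line, and Cenpa, the brightest, lies near 0.

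Differences were seen both below a mean signal of 6 and at 6 or more, where 15 of 18 members were still under 7.53. Of the 18 members with a mean signal of 6 or more, 16 were higher on the deficient diet and 9 had an unadjusted p under 0.05, with a median of 0.37. Of the 25 below 6, 24 were higher and 12 had such a p, with a median of 0.26. Of the 3 members above the 95th percentile of the negative controls, Ube2c alone had an unadjusted p under 0.05, and their median was 0.14. Among members with a promoter window, the 29 with a CHR had a median diet difference of 0.34 (from -0.07 to 0.92) and the 9 without one 0.12 (from -0.02 to 0.75), a difference that was not tested. Nusap1, whose window is printed above, was the highest of those 9.

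The mean over the 43 members showed how the arrays lay. It was 5.87, 5.71 and 5.72 in LRAT -/- on the sufficient diet against 6.12, 6.12 and 6.10 on the deficient diet. In wild type it was 5.92, 6.02 and 5.72. The deficient arrays differed by little among themselves (SD 0.01, n = 3), and the spread was larger in LRAT -/- on the sufficient diet (SD 0.09, n = 3) and in wild type (SD 0.15, n = 3). Wild-type array 3 was the lowest of its group in 33 of the 43 members (76.7%), against 37.7% of all genes, and wild-type array 2 was the highest in 31 (72.1%), against 23.8%. In LRAT -/- on the sufficient diet, array 1 was the highest in 23 members (53.5%), against 29% of genes. On the deficient diet each array was the highest in 13 to 16 members. The highest of the 9 signals was on a deficient array in 33 members (76.7%, against 27.65% of all genes), and the lowest on a sufficient LRAT -/- array in 28 (65.1%, against 32.9%). Group means ran in the order deficient LRAT -/-, wild type, sufficient LRAT -/- in 27 of 43 members (62.8%), an order found in 14.6% of all genes.

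**Figure D4:**
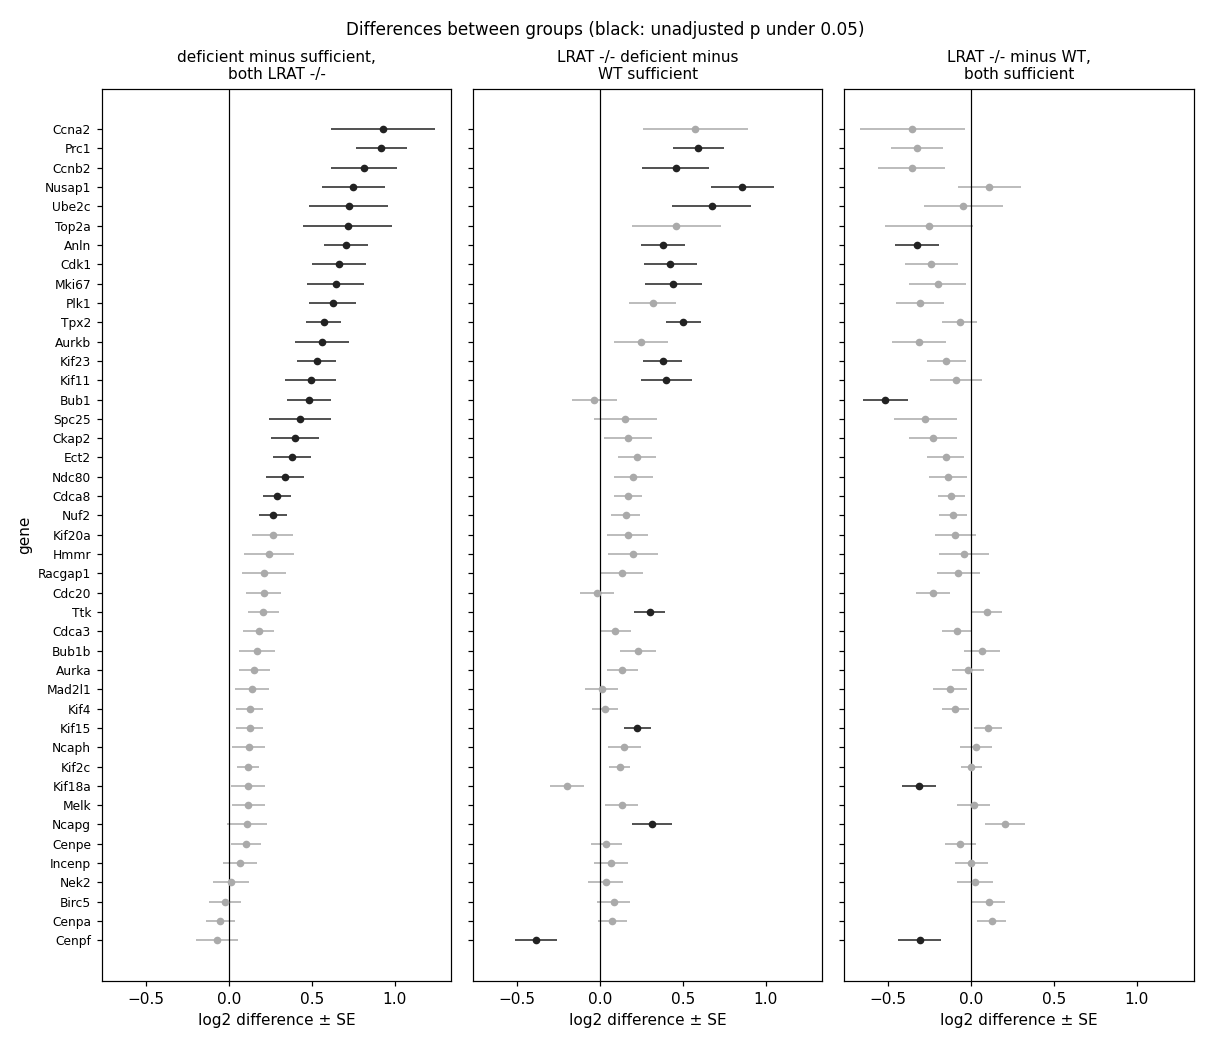
Log2 differences (points) with SE (bars) of the 43 members in the 3 comparisons, ordered by the diet difference, with members at an unadjusted p under 0.05 in black and the others in grey. In the left panel 40 points lie to the right of 0, in the middle panel 39, and in the right panel 31 lie to the left of it. The panels share arrays in pairs.

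Deficient LRAT -/- against wild type sets both changes together against the control, and it shares its deficient arrays with the diet comparison. Of the 43 members 39 were higher in deficient LRAT -/-, against 49.8% of all genes, with a median difference of 0.17 (-0.0002 over all genes). None passed an adjusted p under 0.05 with limma, against 0.129% of all genes, and the lowest adjusted p of a member was 0.177. At an unadjusted p under 0.05, 13 members were higher (3.74% of all genes) and 1 was lower (5.28%). The groups did not overlap in 17 members that were higher (5.13%) and in 1 that was lower (6.36%), and 50.2% of genes had a lower mean. Of the 21 members higher at that unadjusted p in the diet comparison, 10 were also higher here at the same threshold. By its brighter probe set, Nusap1 had the largest difference, 0.86 ± 0.19 (limma, adjusted p = 0.217). Ube2c followed at 0.67 ± 0.24 and Prc1 at 0.59 ± 0.15. In the dimmer Nusap1 probe set, wild type (6.26, 5.98 and 6.21) overlapped deficient LRAT -/- (6.47, 6.24 and 6.26). Tpx2 differed by 0.50 ± 0.11 (limma, adjusted p = 0.177), Kif23 by 0.38 ± 0.12 and Ttk by 0.30 ± 0.09. Mki67 differed by 0.44 ± 0.17, and Anln by 0.38 ± 0.13. For Aurkb the difference was 0.25 ± 0.16 and for Top2a 0.46 ± 0.27, both with unadjusted p-values above 0.05, and Bub1 stood at -0.03 ± 0.14 (0.10 without wild-type array 2 and 0.08 without deficient array 2). The member that was lower was Cenpf (probe set 10360985), a large protein of the outer kinetochore. It read 6.19, 6.36 and 5.85 in wild type against 5.64, 5.85 and 5.75, a difference of -0.39 ± 0.13 (limma, adjusted p = 0.437). Kif18a (probe set 10474381), a kinesin that shortens kinetochore microtubules, read 5.49, 5.74 and 5.51 in wild type and 5.42, 5.43 and 5.30 in deficient LRAT -/-, without overlap (-0.20 ± 0.10). The count of 13 rested on single arrays. It was 6 without wild-type array 3, 8 without deficient array 3 and 18 without wild-type array 2. Of all genes, 2095 had an unadjusted p under 0.05 in either direction with every array in the fit. That number was 3591 without wild-type array 3, 1403 without deficient array 3 and 1655 without wild-type array 2. When wild-type array 3 or 2 was left out, the member count thus moved opposite to that of all genes. Cenpf left the threshold without wild-type array 2 or deficient array 1.

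The comparison of LRAT -/- with wild type, both on the sufficient diet, asks what the labelled knockout changes while vitamin A is supplied. Here 31 of the 43 members were lower in LRAT -/-, against 50.4% of all genes, and 49.6% of genes were higher. The median difference was -0.10 (-0.0008 over all genes). None passed an adjusted p under 0.05 with limma, against 0.133% of all genes, and the lowest adjusted p of a member was 0.394. At an unadjusted p under 0.05, 4 members were lower, where the share among all genes was 3.75%, and 0 were higher, where it was 3.14%. They were Bub1 (-0.52 ± 0.14, limma adjusted p = 0.394), Kif18a (-0.31 ± 0.10), Anln (-0.33 ± 0.13) and Cenpf (-0.31 ± 0.13). The Bub1 signals of sufficient LRAT -/- lay close to 4.54, the median of the negative controls. By the authors' deposited p-values the members under 0.05 were Kif18a (0.0112), Ckap2 (0.0181) and Plk1 (0.0242), all lower. Bub1, Anln and Cenpf were not under 0.05 by those p-values. The groups did not overlap in Bub1 and Kif18a, which is 2 of 43 members against 4.27% of all genes, and in 0 members that were higher, against 3.69%. Kif18a read 5.27, 5.43 and 5.11 in sufficient LRAT -/-, close to the 5.42, 5.43 and 5.30 of the deficient group. Other members lay between -0.36 for Ccnb2 and 0.20 for Ncapg. Mki67 stood at -0.20 ± 0.17, Top2a at -0.26 ± 0.27 and Aurkb at -0.32 ± 0.16, and Prc1 at -0.33 ± 0.15, all with an unadjusted p above 0.05. Top2a stood at 0.20 instead when its 2 probe sets were averaged. All 6 cytokinesis genes were lower, by 0.08 to 0.33 on the log2 scale, and none of the 7 roles had more than 1 member at an unadjusted p under 0.05. Without wild-type array 3, the low array of its group, 13 members were lower at that threshold, and without wild-type array 1 or 2 only 2 were, with 1 higher. Without sufficient LRAT -/- array 1 the count was 8. Of all genes, 1602 had an unadjusted p under 0.05 in either direction with every array in the fit. That number was 2316, 1864 and 1376 without wild-type arrays 3, 1 and 2, and 2371 without sufficient LRAT -/- array 1.

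Other genes of the same process were read from lists outside the 44, which like the members were chosen with earlier results of these data known. Of 52 measured mitosis genes, 42 were higher on the deficient diet within LRAT -/-, 11 of them with an unadjusted p under 0.05, and 1 was lower at that p. Their median difference was 0.12. Of all genes, 49.4% were higher on the deficient diet, 2.31% were higher at that p and 2.07% were lower at it. The same shares stand beside the diet counts of the lists that follow. Cks2, a small subunit of Cdk1 complexes, read 7.92, 7.77 and 7.43 on the sufficient diet, 8.35, 8.39 and 8.28 on the deficient diet and 7.88, 7.94 and 7.75 in wild type. Its diet groups were far apart relative to their spread (0.64 ± 0.12, limma adjusted p = 0.455), and unlike most members its mean signal was above 7.53. The centromere protein Cenpm differed by 0.31 ± 0.08. Cdc25b, a phosphatase that activates Cdk1, differed by 0.23 ± 0.11. The lower gene was the kinetochore gene Ska2, which was singled out after its values were seen (-0.34, unadjusted p = 0.0318 with limma).

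Of 18 transcription factors and subunits that act on late cell cycle promoters, 14 were higher on the deficient diet, 3 with an unadjusted p under 0.05, and 1 was lower at that p, with a median of 0.03. Foxm1, a forkhead activator of mitotic genes, was read through a probe set that the comparison table names 4933413G19Rik and the authors' other table names Foxm1. It read 5.88, 5.99 and 5.99 in sufficient LRAT -/-, 6.19, 6.21 and 6.19 in deficient LRAT -/- and 6.47, 6.28 and 6.19 in wild type. The sufficient LRAT -/- arrays were thus the lowest 3 (0.24 ± 0.08 for diet and -0.36 ± 0.08 against wild type, limma adjusted p = 0.959 and 0.269). E2f1 differed with diet by 0.28 ± 0.11 and Lin9 by 0.20 ± 0.07, while Lin52, like Lin9 a subunit of the MuvB complex that binds the CHR, differed by -0.27 ± 0.09. Of 11 inhibitors of mitosis or of the cell cycle, 6 were higher and 5 lower on the deficient diet, 0 in either direction with an unadjusted p under 0.05. The differences of these 11 ran from -0.22 to 0.45, with a median of 0.01. Cdkn1c, an inhibitor of cyclin-dependent kinases, stood at -0.12 ± 0.08 and Wee1, the kinase that holds Cdk1 inactive, at -0.22 ± 0.28.

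**Figure D5:**
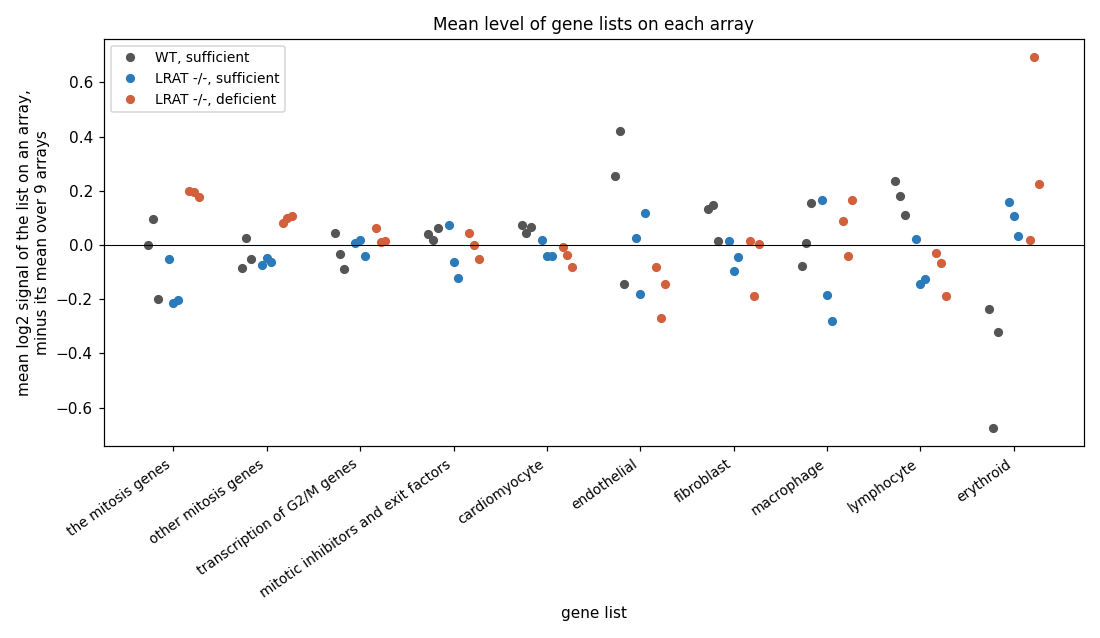
Mean log2 signal of gene lists on each array, minus the list's mean over the 9 arrays, with 1 point per array coloured by group. For the mitosis genes the 3 deficient arrays lie together above the rest, the other mitosis genes show a smaller step, the groups of the macrophage list overlap, and all 6 LRAT -/- arrays lie above the 3 wild-type arrays in the erythroid list.

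Markers of cells that could hold dividing or newly arrived cells are given beside these differences. Of 15 macrophage markers, 13 were higher on the deficient diet within LRAT -/-, 1 with an unadjusted p under 0.05, and the median difference was 0.19. Their mean signal was 9.67, 9.32 and 9.22 on the sufficient diet, 9.59, 9.46 and 9.66 on the deficient diet and 9.42, 9.51 and 9.65 in wild type, so the groups overlapped. Of 11 erythroid markers 9 were higher, with a median of 0.14. Their mean was 9.17, 9.11 and 9.04 on the sufficient diet, 9.02, 9.70 and 9.23 on the deficient diet and 8.77, 8.33 and 8.68 in wild type. All 6 LRAT -/- arrays lay above the 3 wild-type arrays, while the diet groups overlapped. In the comparison of sufficient LRAT -/- with wild type 10 of the 11 were higher, where the share among all genes was 49.6%. At an unadjusted p under 0.05, 4 were higher, where that share was 3.14%. All 11 lymphocyte markers had means under 7.53, like most members. The mean of this list was 6.03, 5.87 and 5.89 in sufficient LRAT -/-, 5.98, 5.94 and 5.82 in deficient LRAT -/- and 6.25, 6.19 and 6.12 in wild type. The diet groups overlapped, and both LRAT -/- groups lay below wild type. In the sufficient group 8 of the 11 markers were lower than in wild type, against 50.4% of all genes. Of these, 4 had an unadjusted p under 0.05, where the share among all genes that were lower was 3.75%. All 9 smooth muscle and pericyte markers were lower on the deficient diet, 4 with an unadjusted p under 0.05, with a median of -0.19. Their mean was 9.03, 8.81 and 8.97 on the sufficient diet, 8.64, 8.76 and 8.61 on the deficient diet and 8.73, 8.88 and 8.75 in wild type, so the diet groups did not overlap. Acta2, smooth muscle actin, had the largest difference of that list (-1.27 ± 0.35, limma adjusted p = 0.959). It read 12.43, 11.75 and 13.15 on the sufficient diet, 11.35, 11.19 and 10.96 on the deficient diet and 10.89, 11.85 and 10.89 in wild type. Deficient LRAT -/- thus stood at -0.05 ± 0.35 against wild type, and sufficient LRAT -/- at 1.23 ± 0.35. The 4 atrial cardiomyocyte markers were all higher on the deficient diet, with a median of 0.37, and 0 had an unadjusted p under 0.05. Of 10 endothelial markers 9 were lower on the deficient diet, with a median of -0.18, and of 10 fibroblast markers 7 were lower, with a median of -0.07. The part of these cell types in the differences of the mitosis genes was not tested.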

How the data were processed

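Gene expression was read on 9 arrays of left ventricle RNA, 3 per group as the labels give them. Each sample's deposited values are log2 signals from the authors' RMA (background correction, quantile normalization and 1 value per probe set). RMA is named per the submitters' processing notes, which also give R 3.1.2 and genome build mm8 without their roles. The log2 scale was read from the values, whose medians per array lie between 6.38 and 6.43. The authors also deposited a table with a ratio for each pair of groups, beside which stands the authors' p-value of that pair. How these were computed is not stated. Another table of the authors holds 9 value columns under scan codes that match no label. They were not used, and only its gene names and control types were read.

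Of 35556 probe sets, 26107 were named by the comparison table and 229 by the other table alone. The brightest probe set per gene gave 23229 genes. Control or unnamed probe sets (9220) were left out. limma 3.58.1 (R 4.3.3) was fitted with 1 mean per group over the 9 arrays and eBayes, and its two-sided p-values were adjusted by Benjamini-Hochberg across the 23229 genes (threshold 0.05). All 3 comparisons share arrays in pairs. The precision is limited by the 3 arrays per group. Tables were made with Python 3.11.15 and pandas 2.3.3.

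The members and gene lists were chosen with earlier results of these data known. Values on every array were given for the 4 members with the lowest p in each comparison and for Mki67, Top2a and Aurkb, and up to 4 genes of another list by lowest p over the 3 groups; Ccnb1, the other members shown on every array, Ska2 and Pttg1 were added after their values were seen. Alternatives covered the arrays left out in turn, the replicate number as a block, only the 2 groups compared, a floor on the mean signal, the mean of probe sets, quantile normalization again, robust eBayes, all probe sets and the authors' p-values. Same-numbered arrays of the 2 LRAT -/- groups deviated from their group means together across genes (correlations 0.221, 0.264 and 0.211). With wild type such correlations ran from -0.141 to 0.125. No label states a pairing, and these values alone do not establish one. The main fit did not use the numbers, which entered as a block only among the alternatives.

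Promoter windows were taken from RefSeq on GRCm38.p6, matched by symbol, and searched on both strands.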

Additional observations from a re-analysis of the deposited data

How the results depend on the processing

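With limma, 0 of the 43 members had an adjusted p under 0.05 in any of the 3 comparisons under any alternative run. In the diet comparison the 21 members higher at an unadjusted p under 0.05 became 9 among the 18 with a mean signal of 6 or more and 1 among the 3 at or above the 95th percentile of the negative controls, with medians of 0.37 and 0.14. Leaving out 1 array gave 15 to 23. The authors' deposited p-values gave 16 such members. For VAD LRAT -/- against wild type the 13 higher became 6 at the floor of 6 and 1 at the percentile, and 6 to 18 with 1 array left out. The 1 lower became 0 at both floors and by the authors' deposited p-values, and 0 to 1 with an array left out. That member, Cenpf, had a mean signal of 5.90, so both floors took it out before testing. For sufficient LRAT -/- against wild type the 4 lower became 2 with only the 2 groups in the fit and 0 at both floors. With an array left out they became 2 to 13, and the 0 higher became 0 to 1. The mean signals of these 4 ran from 4.89 for Bub1 to 5.91 for Anln. Both floors thus took all 4 out before testing. With the replicate number as a block, 22 members were higher with diet, 2 were lower in VAD LRAT -/- against wild type and 5 in sufficient LRAT -/- against wild type. With the block and only the 2 groups compared, chosen after seeing the data, 25 were higher with diet, 11 were higher in VAD LRAT -/- against wild type, and 3 were lower in sufficient LRAT -/- against it. Turned directions were all within 0.20 of 0. For sufficient LRAT -/- against wild type, averaging probe sets took Nusap1 from 0.11 to a log2 difference of -0.026 and Top2a from -0.26 to 0.20. With 1 array left out Nusap1 lay between -0.039 (without LRAT -/- array 1) and 0.25, and Tpx2 between -0.15 and 0.0053 (without LRAT -/- array 3). For VAD LRAT -/- against wild type Bub1 lay between -0.16 and 0.10 (without wild-type array 2; 0.08 without VAD array 2), and at 0.14 by the authors' ratios. The causes were not tested beyond the fewer genes or arrays each setting holds. Signals near the negative controls limit all sizes.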

Other observations

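Pttg1, which encodes securin, the inhibitor that the anaphase-promoting complex removes to let sister chromatids part, was singled out after its values were seen. It read 7.38, 7.54 and 10.04 in wild type, 7.48, 9.89 and 7.58 in sufficient LRAT -/-, and 9.59, 10.59 and 9.55 in deficient LRAT -/-. The 9 arrays thus fell into a low set of 4 and a high set of 5, with all 3 deficient arrays in the high set beside wild-type array 3 and sufficient LRAT -/- array 2. No array lay between 7.58 and 9.55. The diet difference of 1.59 had an unadjusted p of 0.0759 with limma. Wild-type array 3, high for Pttg1, was the lowest of its group in 33 of the 43 members.

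The other 2 probe sets of Ccnb1 were dimmer than the one described above. The dimmest read 4.75, 4.71 and 4.72 in sufficient LRAT -/-, 5.04, 5.30 and 5.25 in deficient LRAT -/- and 5.15, 5.32 and 4.76 in wild type. The remaining one read 5.10, 4.82 and 4.77, then 5.15, 5.39 and 5.48, and 5.27, 5.25 and 4.98. In all 3 probe sets the deficient arrays lay above all sufficient LRAT -/- arrays, and wild-type array 3 was the lowest of its group.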
